A study of Mus musculus with 6 samples.

Results

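Erythroblasts are the nucleated precursors of red blood cells, and the mouse spleen holds them in its red pulp beside resident macrophages. They take up iron, make haem and fill with haemoglobin, a program driven by the transcription factors GATA1 and KLF1 and sustained by erythropoietin, and they divide several times before the nucleus is expelled. The erythroid genes followed here in splenic B cell isolates were 8 of the 19935 genes measured by a probe set naming a single gene. They were chosen by name, with earlier results of these data known. They include the regulator Klf1, the erythropoietin receptor gene Epor and the haem synthesis enzyme gene Alas2. The others are the red cell membrane genes Slc4a1, Rhag and Ermap, the carbonic anhydrase gene Car1 and the transferrin receptor gene Tfrc. Each of the 8 had 1 such probe set. The question was whether their signal rose and fell in the same arrays as the genes of cell proliferation.

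The isolates came from spleens of C57BL/6J mice, with 3 Wild-Type (WT) animals and 3 carrying the Cd37 -/- genotype (CD37KO), 1 array per mouse. Every sample is described as a littermate and, per the sample labels, as 3 months old. None of the mice was treated. B cells were enriched by lysing red cells, separating on a density medium and removing CD43-bearing cells with magnetic beads, and B220 staining was used to check purity. Values are log2 probe set intensities normalised across arrays, so a difference of 1 is a doubling of signal, and levels of different genes are not compared. The background level was taken from genes of odorant receptors, which are proteins of the nasal epithelium: 95% of the 1027 measured had a mean below 5.76, and 11301 genes exceeded it in at least 1 array. The deleted gene, Cd37, which encodes a tetraspanin of the B cell surface, read 11.99, 11.83 and 12.08 in WT and 8.15, 8.17 and 8.17 in CD37KO, a difference of -3.80 (SE 0.0762, limma adjusted p = 1.37e-07) that followed the labels of all 6 arrays. The probe set still read 2.39 or more above background in CD37KO, and whether its probes lie in the deleted part is not stated in the sources used. The B cell genes Cd74 (13.00 to 13.20) and Ms4a1, which encodes CD20 (12.22 to 12.47), were read in every array, and the 11 B cell genes measured had a per-array mean that moved by 0.0772 over the 6 arrays.

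Promoters of the erythroid genes are shown because most carry the letters that GATA factors bind. These include Alas2 and Epor, which had the same arrays on top, and Ermap, which spanned only 0.194 over the arrays. They also include Klf1 and Rhag, which were below background in every array, so that their movement could not be read. Sequences were from RefSeq on GRCm38.p6, which was matched for 6 of the 8 genes and not for Car1 and Slc4a1. Each line gives the 150 bases that end just before the transcription start, 5′ to 3′ on the strand of the gene, with capitals at the GATA letters (AGATAA or TGATAA) and at the CACC letters (CCNCNCCC, of the kind KLF1 binds), each searched on both strands.
Alas2: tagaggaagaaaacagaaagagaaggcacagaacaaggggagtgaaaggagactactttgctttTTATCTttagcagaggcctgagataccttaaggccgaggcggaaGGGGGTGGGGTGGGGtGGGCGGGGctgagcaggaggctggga
Epor: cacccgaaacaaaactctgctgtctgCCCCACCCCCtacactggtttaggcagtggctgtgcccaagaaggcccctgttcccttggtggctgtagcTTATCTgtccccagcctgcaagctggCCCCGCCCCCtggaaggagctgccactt
Klf1: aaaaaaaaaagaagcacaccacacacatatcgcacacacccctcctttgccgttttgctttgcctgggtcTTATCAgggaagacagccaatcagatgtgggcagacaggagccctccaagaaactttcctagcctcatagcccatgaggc
Rhag: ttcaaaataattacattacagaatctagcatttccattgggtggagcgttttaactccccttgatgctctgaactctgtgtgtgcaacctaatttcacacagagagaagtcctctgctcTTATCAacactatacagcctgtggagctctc
Ermap: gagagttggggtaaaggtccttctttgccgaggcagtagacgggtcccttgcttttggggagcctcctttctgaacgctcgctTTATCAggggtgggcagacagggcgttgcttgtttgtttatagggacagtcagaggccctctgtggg
These windows lie at chrX:150547267-150547416 (Alas2, plus strand), chr9:21963577-21963726 (Epor, minus strand), chr8:84901832-84901981 (Klf1, plus strand), chr17:40810999-40811148 (Rhag, plus strand) and chr4:119189996-119190145 (Ermap, minus strand). The GATA letters stood 86 to 81 bases before the start in Alas2, 54 to 49 in Epor, 80 to 75 in Klf1, 31 to 26 in Rhag and 67 to 62 in Ermap, and did not overlap the CACC letters in any of them. Of the 6 promoters, 5 held the GATA letters within 250 bases before the start, and the same letters occurred in 16.6% of 32851 mouse promoters. The CACC letters were found in Alas2, Epor and Tfrc, 3 of 6, beside 45.9% of all promoters. Tfrc had no GATA letters in this window. A match is a run of letters and was not tested as a binding site.

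Of the 8 erythroid genes, Slc4a1, Ermap, Car1 and Tfrc were above background in all 6 arrays, Alas2 in 4 and Epor in 3, while Klf1 and Rhag were below it in every array. KLF1 is the factor that switches on many late erythroid genes, and its gene read 5.22, 5.25 and 5.35 in WT and 5.16, 5.24 and 5.28 in CD37KO. Rhag, whose product is a partner of the Rh blood group proteins in the red cell membrane, ran from 4.79 to 5.12. Not all the genes that define an erythroblast were therefore read above background, which does not show that their transcripts were absent. The genes are named here individually and not as a cell type.

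Car1, a carbonic anhydrase of red cells, varied most among the 8. It read 7.16, 6.08 and 6.13 in the 3 WT arrays and 7.48, 5.84 and 7.63 in the 3 CD37KO arrays. WT 1, CD37KO 1 and CD37KO 3 were high and the other three low, so high and low arrays occurred in both genotypes. The highest array exceeded the lowest by 1.80 (3.48-fold), more than in 99.8% of the genes above background in at least 1 array.

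Slc4a1, which encodes the band 3 anion exchanger of the red cell membrane, showed the same 3 arrays on top. It read 6.55, 5.99 and 6.23 in WT and 7.06, 6.01 and 6.90 in CD37KO, a span of 1.07 (2.10-fold). A span of at least 1 was reached by 2 of the 8 erythroid genes, Car1 and Slc4a1, and by 2.32% of genes above background.

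Alas2, the erythroid form of the first enzyme of haem synthesis, read 6.24, 5.61 and 5.86 in WT and 6.15, 5.70 and 6.12 in CD37KO. Epor, the receptor through which erythropoietin keeps erythroid precursors alive, read 5.87, 5.70 and 5.46 in WT and 5.93, 5.54 and 6.08 in CD37KO. Both spanned about 0.6 (0.629 and 0.619) and lay within 0.5 of the background level, Alas2 with its lowest 2 arrays below it and Epor with its lowest 3. Their 3 highest arrays were again WT 1, CD37KO 1 and CD37KO 3. This set of 3 was on top in 4 of the 8 erythroid genes and in 9.79% of the genes above background in at least 1 array, but it is the set with the highest mean of these same 8 genes, so nothing is read from the members' count.

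The remaining members moved little. Ermap, an erythroid membrane protein of the immunoglobulin superfamily, read 6.401, 6.387 and 6.422 in WT and 6.581, 6.427 and 6.469 in CD37KO. The genotypes did not overlap, but the lowest CD37KO array (6.427) and the highest WT array (6.422) were nearly level. Tfrc encodes the receptor that brings transferrin-bound iron into erythroblasts and into most dividing cells, and it read 9.44, 9.23 and 9.50 in WT and 9.35, 9.44 and 9.42 in CD37KO. Its order over the arrays differed from that of Car1 and Slc4a1, with WT 3 highest and WT 2 lowest.

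**Figure D1:**
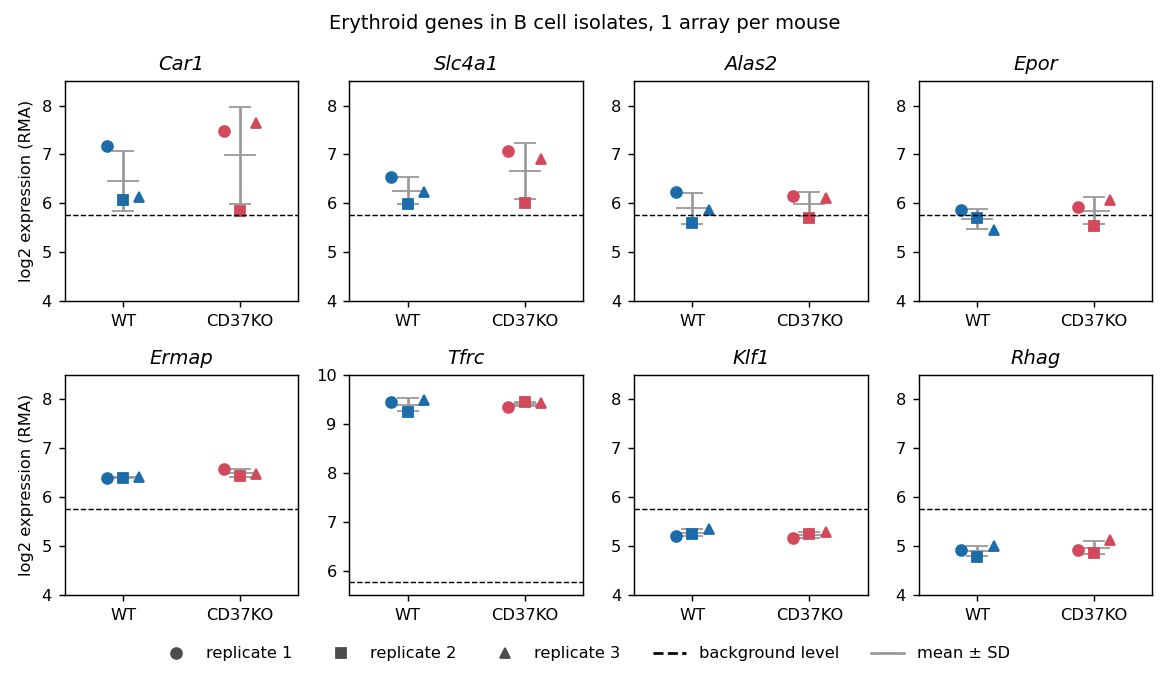
Log2 expression of the 8 erythroid genes in each array, by genotype (n = 3 mice each), with the mean and SD in grey and the background level of 5.76 dashed. Marker shape gives the replicate number, the panel of Tfrc has its own axis range, and Car1 and Slc4a1 show replicate 1 of WT and replicates 1 and 3 of CD37KO above the other arrays.

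Haemoglobin itself could be followed by 4 adult globin probe sets, 2 alpha and 2 beta. Each names several near-identical genes of its family, so they stand for the family and for no single gene, and they were added after the values of the members had been seen. The first alpha probe set read 11.52, 10.26 and 10.75 in WT and 11.72, 10.57 and 11.82 in CD37KO. The first beta probe set read 10.09, 8.89 and 9.27 in WT and 10.46, 8.95 and 10.64 in CD37KO, and its highest array exceeded its lowest 3.36-fold. All 4 probe sets put the arrays in the order CD37KO 3, CD37KO 1, WT 1, WT 3, CD37KO 2 and WT 2, from high to low, so the same 3 arrays were on top as for Car1. The genotypes overlapped in all 4 (differences of 0.45 to 0.60, exact permutation p = 0.3 each, two-sided, n = 3 against 3). The 6 embryonic and theta-like globin genes with a probe set of their own were below background in every array.

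Genotype was tested for each gene with limma over all 19935 genes. None of the 8 erythroid genes passed at an adjusted p of 0.05 (0.0552% of all genes did) and none at an unadjusted p of 0.05 (5.95% of all genes). Car1 averaged 6.46 ± 0.613 in WT and 6.98 ± 0.996 in CD37KO (SD, n = 3 each), a difference of 0.52 with a 95% interval from -0.56 to 1.61 (limma adjusted p = 0.840). Slc4a1 averaged 6.26 ± 0.279 in WT and 6.66 ± 0.570 in CD37KO, a difference of 0.40 with an interval from -0.20 to 0.99 (limma adjusted p = 0.809). Both intervals run from below 0 to about a doubling or more, so the data set no narrow limit on a genotype difference in these genes. Single arrays weighed heavily, since the difference of Car1 was 1.1 without CD37KO 2 and 0.199 without CD37KO 3, and that of Slc4a1 was 0.724 without CD37KO 2 and 0.195 without CD37KO 1.

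The 6 other genes had narrower intervals, which for Klf1 and Rhag, below background in all arrays, set no limit on a change of the transcript. The difference was 0.09 for Alas2 (interval -0.30 to 0.48), 0.17 for Epor (-0.17 to 0.51) and 0.09 for Ermap (-0.06 to 0.24). It was -0.04 for Klf1 (-0.20 to 0.11), 0.06 for Rhag (-0.14 to 0.27) and 0.01 for Tfrc (-0.17 to 0.20). Ermap was the 1 gene of 8 whose genotypes did not overlap (exact permutation p = 0.1, the smallest that 3 against 3 arrays can give), and the genotypes did not overlap in 11.9% of all genes. The difference was above 0 in 7 of the 8 genes, with a median of 0.0887, beside a median of -0.0186 over all genes, of which 41.8% lay above 0. The members' median was 0.244 over those left when only genes above background were fitted, and 0.0423 (without WT 2) to 0.178 (without CD37KO 2) when 1 array was left out.

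**Figure D2:**
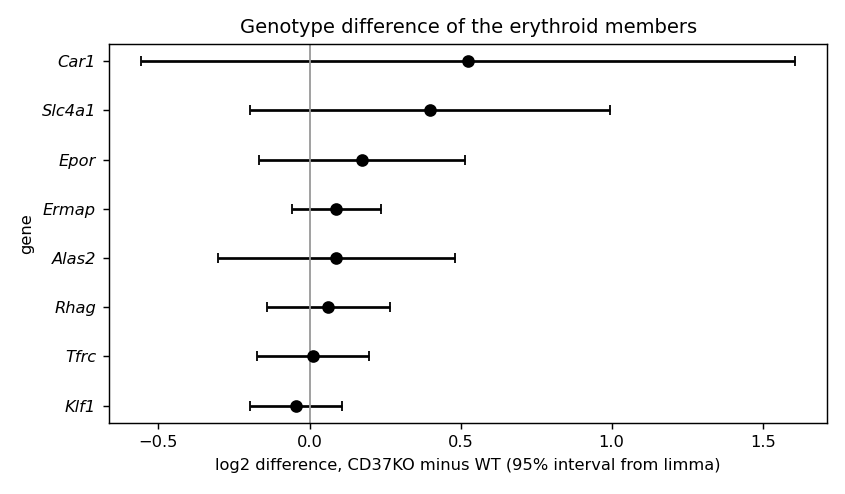
Log2 difference of CD37KO minus WT for the 8 erythroid genes, with 95% intervals from limma (n = 3 arrays per genotype). All intervals cross 0, and those of Car1 and Slc4a1 are the widest.

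A wider erythroid panel of 65 measured genes was read in the same way, and 41 of them were above background in at least 1 array. No gene of the panel passed at an adjusted p of 0.05, and 3 had an unadjusted p under 0.05 (5.95% of all genes did), all with the higher mean in CD37KO. These were Slc29a1, a nucleoside transporter (difference 0.35, SE 0.111), Blvrb, the biliverdin reductase of red cells (0.25, SE 0.0784), and Alad, the second enzyme of haem synthesis (0.15, SE 0.0604), each with a limma adjusted p of 0.801. The median difference over the panel was 0.0146. The genotypes did not overlap in 5 of the 65, a smaller share than the 11.9% of all genes, with Alad, Blvrb and Ube2o higher and Icam4 and Mfsd2b lower in CD37KO.

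Among 14 transcription factors and regulators, 9 were above background in at least 1 array. Gata1, the master regulator of the lineage, lay between 4.79 and 5.18, and Tal1, its partner in erythroid gene activation, between 5.41 and 5.54, both below background in all arrays. Nfe2, Hemgn and Trim10 were below it as well. Of the regulators above background, the 3 with the largest span were E2f2, a cell cycle factor (6.52, 6.49 and 6.59 in WT and 6.75, 6.35 and 7.06 in CD37KO), Myb, a progenitor factor (span 0.53), and Bcl11a (span 0.37), which is also a B cell factor. None of these 3 had the array set of Car1 on top.

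Of 12 haem synthesis genes, 11 were above background. Tmem14c, a mitochondrial porphyrin importer, spanned the most and read 8.56, 8.26 and 8.39 in WT and 8.67, 8.25 and 8.79 in CD37KO, with WT 1, CD37KO 1 and CD37KO 3 on top. Slc25a38, the mitochondrial glycine carrier, spanned 0.49 and Fech, which inserts iron into haem, 0.37. Of 16 membrane genes, 7 were above background and Sptb, Epb42, Add2, Tmod1, Rhd, Kel, Icam4, Aqp1 and Cldn13 were not in any array. Gypc, a glycophorin, read 8.04, 8.02 and 8.30 in WT and 7.85, 8.09 and 7.59 in CD37KO and so had its 2 lowest values in arrays in which Car1 was high. Slc29a1 (7.57, 7.30 and 7.42 in WT and 7.92, 7.55 and 7.87 in CD37KO) had the array set of Car1 on top, and Slc43a1 spanned 0.60.

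Of 8 iron genes, all but Tfr2 were above background, and the largest spans were those of the ferric reductase Steap3 (0.48), the ferritin light chain Ftl1 (0.33) and the iron-responsive regulator Aco1 (0.28). Of 9 enzyme and maturation genes, all but Bpgm and Trim58 were above background. Car2, the other main carbonic anhydrase of red cells, read 7.99, 7.65 and 8.11 in WT and 8.28, 7.85 and 8.31 in CD37KO, and Ctse and the peroxiredoxin Prdx2 spanned 0.55 and 0.48. No gene of the 65 spanned 1 or more, beside 2.32% of genes above background. Of the 41 above background, 6 had WT 1, CD37KO 1 and CD37KO 3 as their 3 highest arrays. The share over all genes above background was 9.79%, and nothing is read from the count of 6. Many genes of the panel are used by other cells as well. Of the red cell membrane skeleton genes, Sptb and Epb42 were below background in all arrays, while Ank1 (5.70 to 5.94) and Dmtn (5.62 to 5.80) lay around it and exceeded it in 4 and 3 arrays.

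To follow arrays and not single genes, the log2 values of each gene were centred on its mean over the 6 arrays and averaged over the 8 members. This erythroid mean was 0.11, -0.235 and -0.12 in WT 1, 2 and 3 and 0.214, -0.233 and 0.263 in CD37KO 1, 2 and 3. The arrays thus lay in 2 sets of 3 with a gap between them, and a correlation with this mean chiefly reflects that gap. The members did not move as 1 set. Car1 and Slc4a1 had the largest spans (1.80 and 1.07), and r with Slc4a1 was 0.11 for Tfrc and -0.42 for Klf1. The adult globin probe sets ran with the erythroid mean (r = 0.996 over 6 arrays). Of the other erythroid lists, r with this mean was 0.924 for haem synthesis, 0.93 for iron and 0.792 for enzymes and maturation. It was 0.452 for membrane genes, 0.203 for transcription factors and -0.336 for the embryonic and theta-like globins, all below background. Over the 41 panel genes above background it was 0.813. Means of these lists spanned less, from 0.106 (iron) to 0.284 (enzymes and maturation), against 0.498 for the members. Every such r is over values of the same 6 arrays under a shared normalisation, is given without a test, and cannot be examined inside a set of 3.

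The proliferation genes did not follow the same order. Of 60 measured, 57 were above background in at least 1 array, and their mean was -0.12, 0.09 and -0.28 in WT and 0.25, -0.20 and 0.26 in CD37KO. CD37KO 1 and CD37KO 3 were high for both lists. WT 1, which was in the high set for the erythroid genes, was below average for proliferation, and WT 2, which with CD37KO 2 had the lowest erythroid mean, was above it. WT 2 exceeded WT 1 in 55 of the 60 proliferation genes, by 0.202 on average, and its erythroid mean was 0.345 lower. WT 2 also exceeded CD37KO 2 in 56 of 60 genes, by 0.289, and the erythroid means of these arrays differed by 0.00195. The share of all genes higher in WT 2 was not counted for either pair, so nothing is read from these counts.

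Over the 6 arrays the erythroid and proliferation means had a Pearson r of 0.651 and a Spearman rho of 0.6, and r was 0.826 without the 2 arrays farthest from the median erythroid mean (CD37KO 3 and WT 2). Leaving out WT 2 alone gave 0.884 and leaving out CD37KO 3 alone 0.492. WT 1, CD37KO 1 and CD37KO 3 were the 3 highest arrays in 3 of the 60 proliferation genes, beside 9.79% of genes above background. The members differed among themselves. Against Mki67, the proliferation marker that encodes Ki-67, r was 0.842 for Epor, 0.647 for Car1, 0.574 for Slc4a1 and 0.455 for Ermap. It was 0.271 for Alas2 and -0.660 for Tfrc. Against Top2a, another proliferation gene, r was higher, at 0.864, 0.717, 0.694, 0.626, 0.360 and -0.507 in the same order. Klf1 and Rhag, below background, are left out.

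The 4 proliferation genes with the highest mean signal were the replication genes Pcna, Cdt1, Mcm4 and Mcm7. Pcna, the sliding clamp of DNA polymerases, read 11.82, 11.87 and 11.71 in WT and 11.79, 11.72 and 11.57 in CD37KO, with its lowest value in the array of the highest erythroid mean. Mcm4, a subunit of the replicative helicase, read 9.29, 9.37 and 9.13 in WT and 9.59, 9.21 and 9.37 in CD37KO. Mcm7 spanned 0.45 and the licensing factor Cdt1 0.15. The span of at least 1 was reached by 7 of the 60 proliferation genes, beside 2.32% of genes above background. These were Mki67, Top2a, Ccna2, Bub1, Cenpe, Rrm2 and E2f8, which were picked out by that span. Mki67 read 8.341, 8.912 and 7.745 in WT and 8.999, 8.085 and 9.158 in CD37KO.

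No proliferation gene passed at an adjusted p of 0.05. An unadjusted p under 0.05 was reached by 2 of the 60 (Ckap2l and Tk1), with the higher mean in CD37KO, beside 5.95% of all genes. The difference was above 0 in 58 of the 60, with a median of 0.21, beside 41.8% of all genes and a median of -0.0186. These genes varied together over the arrays, so the count is not one of separate observations. CD37KO 3 was the highest array in 32 genes and CD37KO 1 in 21, whereas WT 3 was the lowest in 36 and CD37KO 2 in 19. Whether erythroid cells carried any of the proliferation signal was not tested, and in bulk isolates fewer cells of a type and less RNA per cell cannot be told apart.

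**Figure D3:**
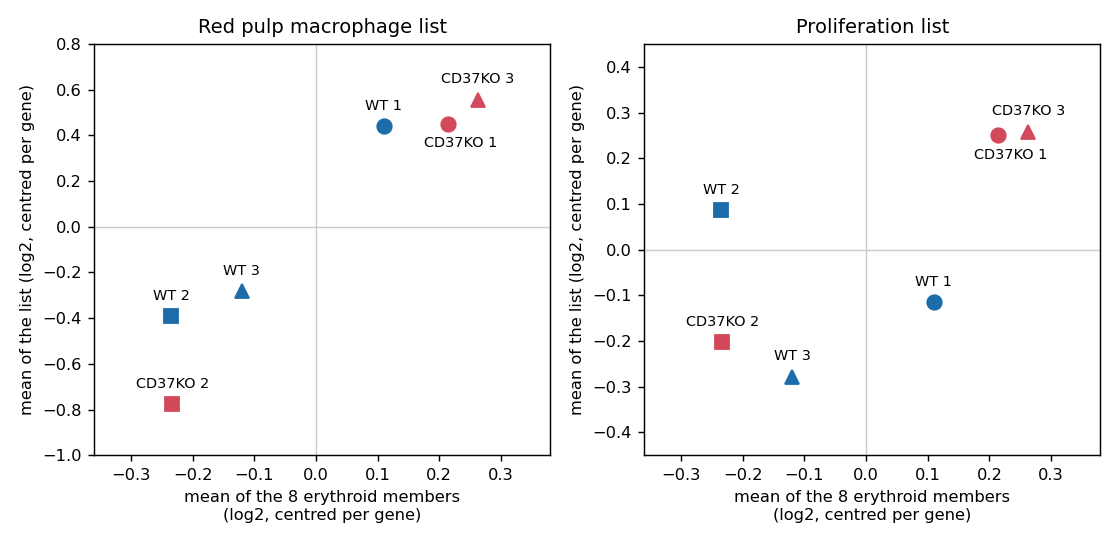
Per-array mean of the red pulp macrophage list (left) and of the proliferation list (right) against the mean of the 8 erythroid genes, each in log2 units centred per gene, with 1 point per array. For macrophage genes WT 1, CD37KO 1 and CD37KO 3 lie together at the upper right, whereas for proliferation genes WT 1 lies below 0 and WT 2 above it.

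Genes of splenic red pulp macrophages, the cells that clear aged red cells and recycle their iron, put the arrays in nearly the same order as the erythroid genes. Of 14 measured, 13 were above background in at least 1 array, and only Marco, which marks marginal zone macrophages, was below it in all. Their mean was 0.44, -0.39 and -0.28 in WT and 0.45, -0.78 and 0.56 in CD37KO (r = 0.961 and rho = 0.943 with the erythroid mean, and r = 0.973 without CD37KO 3 and WT 2). The same 3 arrays were on top in 13 of the 14, beside 9.79% of the genes above background in at least 1 array. That set was taken from the erythroid mean. The macrophage genes varied together over the arrays, so the count is not one of separate observations. Summed linear signal over the list ran from 7564 to 14010 in WT and from 5685 to 15650 in CD37KO.

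Slc40a1, the iron exporter ferroportin, read 11.063, 10.070 and 10.116 in WT and 10.997, 9.348 and 11.035 in CD37KO, and Vcam1, an adhesion molecule of these macrophages, read 10.83, 9.97 and 10.05 in WT and 10.93, 9.47 and 11.03 in CD37KO. Neither passed the genotype test (limma adjusted p = 0.987 and 0.928), and no gene of the list passed at an unadjusted p of 0.05 (5.95% of all genes did). Adgre1, which encodes the macrophage antigen F4/80, read 10.10, 9.17 and 9.35 in WT and 10.19, 9.18 and 10.42 in CD37KO and tracked Car1 with r = 0.992, beside r = 0.957 between Car1 and Slc4a1. The part of macrophage RNA in the erythroid signal was not tested.

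Among the 260 genes outside the members that were above background and spanned at least 1, the 10 most like the erythroid mean were Frmd4b (r = 0.997), Lcp2, Adap2, Adgre1, Epb41l3, Dse, Fcna, Nr1h3, Paqr9 and Gm5150 (0.990), each over 6 arrays. Frmd4b read 8.47, 7.30 and 7.78 in WT and 8.76, 7.27 and 8.86 in CD37KO. Adgre1 was the 1 gene of the 10 that was also on the list of 14 macrophage genes, and the cell types that use the rest were not examined. The macrophage list genes among the 260 stood at rank 4 (Adgre1) to 190 (Cd163), with r from 0.618 to 0.993. The proliferation genes among the 260 stood at rank 172 (Rrm2) to 200 (Mki67), with r from 0.555 to 0.697.

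Lists of other cell types had a lower r with the erythroid mean than the macrophage list. The neutrophil mean was -0.43, -0.60 and -0.40 in WT and 1.06, -0.12 and 0.48 in CD37KO, with every CD37KO array above every WT array. Its r with the erythroid mean was 0.724, or 0.59 without CD37KO 3 and WT 2. Of its 14 genes, 12 had an unadjusted p under 0.05 (5.95% of all genes did), all with the higher mean in CD37KO. None passed after adjustment. These genes varied together over the arrays, so the count is not one of separate observations. Ngp, a neutrophil granule protein gene, read 8.34, 8.13 and 8.46 in WT and 11.09, 9.48 and 10.56 in CD37KO (limma adjusted p = 0.258), and Lcn2 read 7.53, 6.97 and 7.70 in WT and 10.24, 8.40 and 9.46 in CD37KO. The summed neutrophil signal was 1022 to 1263 in WT and 1895 to 5743 in CD37KO, with no overlap, whereas that of the 8 erythroid genes overlapped (982.9 to 1218 in WT and 1065 to 1302 in CD37KO, or 381.2 to 522.6 and 372.8 to 617.0 without Tfrc, which gives most of the sum).

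Of the remaining lists, the germinal centre and plasmablast genes (Irf4 and Bcl6 the brightest) had an r of 0.495 with the erythroid mean, the T cell genes (Cd4 and Il7r) 0.575, the platelet genes (Itgb3 and Treml1) 0.0968, the progenitor and mast cell genes (Hdc and Ms4a2) -0.0644 and the B cell genes -0.429. Without CD37KO 3 and WT 2 these r values were, in the same order, 0.743, 0.505, 0.944, 0.0529 and -0.674, so that of the platelet genes rested on these arrays. Cd4, the T helper co-receptor that is also carried by other leukocytes, read 6.83, 6.30 and 6.57 in WT and 6.89, 6.43 and 6.86 in CD37KO and was highest in the array set of Car1. Hdc, a histamine synthesis gene, was highest in CD37KO 1 (8.14) and lay between 6.51 and 7.10 in the other five arrays. The per-array means of the T cell, platelet, progenitor and B cell lists spanned 0.118, 0.191, 0.181 and 0.0772, and that of the germinal centre and plasmablast list 0.412, against 0.498 for the erythroid members.

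**Figure D4:**
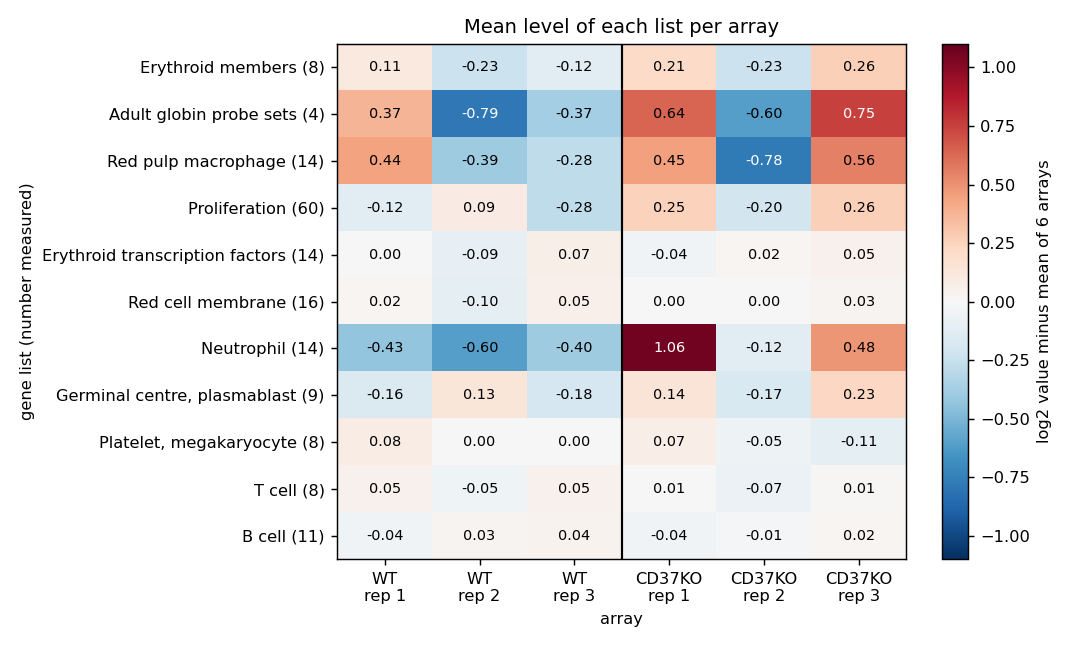
Mean log2 level of a selection of the gene lists in each array, centred per gene on its 6-array mean. Brackets give the number of genes measured, with red for higher and blue for lower. The haem synthesis, iron, enzyme and maturation, embryonic globin, and progenitor and mast cell lists are not shown. The erythroid member, adult globin and macrophage rows are red in WT 1, CD37KO 1 and CD37KO 3. The proliferation row is red in WT 2 but not in WT 1, and the neutrophil row is highest in CD37KO 1 at 1.06.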

How the data were processed

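Each of 3 WT and 3 CD37KO isolates of CD43-depleted splenic B cells was hybridised to its own Affymetrix mouse gene array. The authors deposited log2 expression values made with RMA (background correction, quantile normalisation and probe set summary); the processing notes name build mm8, with no statement of the RMA software. Normalisation to a common distribution can hide a shift shared by most genes. Groups were taken from the sample labels.

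Of 35361 probe sets, 21780 named 1 gene, 1605 named several and 11976 had no gene name here. Symbols were updated through Entrez IDs, of which 91 were not matched. For each of 19935 genes the probe set with the highest mean was kept. Genotypes were compared by a two-sided moderated test (limma 3.58.1, R 4.3.3) with Benjamini-Hochberg adjustment over all genes and a threshold of 0.05, and single values with the exact permutation test over arrays. The fit was tested on simulated data. The number of arrays limits the precision. Alternatives were another quantile normalisation, median centring, averaged probe sets, other background levels, a background filter, robust and unmoderated tests, array weights, a replicate block and leaving out each array.

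All 8 members are described. The text also names the 3 genes with the largest span in each other erythroid list, the 4 brightest proliferation genes, the 2 brightest genes of each other cell list and the 10 genes most like the erythroid mean (Pearson r, span of at least 1, above background in at least 1 array). Other genes named were chosen after their values were seen. The members and lists were chosen with earlier results of these data known. Genes of the lists that no single-gene probe set measured were not analysed here. The background level was the 95th percentile of the 6-array means of olfactory receptor genes. Promoters were read from RefSeq on GRCm38.p6.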

Additional observations from a re-analysis of the deposited data

How the results depend on the processing

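The count of erythroid members past an adjusted p of 0.05 was 0 under every alternative run, as was that of the 65 other erythroid genes. At an unadjusted p of 0.05 the members' count was 0 as reported, 1 with a replicate block, and 0 to 3 when 1 array was left out (3 without CD37KO 2). For the 65 other genes it was 3 as reported, 8 with array weights (WT 1 weighed 4.10, the others 0.464 to 1.19), and 0 to 7 when 1 array was left out (0 without CD37KO 3 and 7 without CD37KO 2). Leaving out 1 array at a time moved the r of the erythroid and proliferation means between 0.492 and 0.884. Over all alternatives the members' limma adjusted p-values ran from 0.179 to 1.0. Tests that change only the error, the averaging of probe sets (each member has 1) and the background filter cannot change a member's difference, and among the other alternatives 8 values changed sign. The difference was -0.0803 for Alas2 and -0.035 for Tfrc with array weights, and 0.0105 for Klf1 and -0.00501 for Tfrc under another quantile normalisation. With 1 array left out it ran from -0.0577 (without WT 2) to 0.257 for Alas2, from -0.0141 (without CD37KO 3) to 0.114 for Rhag, and from -0.0672 (without WT 2) to 0.0642 for Tfrc, which was also -0.00511 without CD37KO 2. It ran from 0.199 to 1.1 for Car1, from 0.195 to 0.724 for Slc4a1 and from 0.0604 to 0.327 for Epor. The cause was not tested.

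With a stricter background level (99th percentile), 4 members in place of 6 exceeded it in at least 1 array. Deviations of same-numbered WT and CD37KO arrays from their group means had correlations of 0.238, 0.00678 and -0.139. Those of different-numbered arrays ran from -0.367 to 0.312. The labels state no pairing, and these values cannot exclude one. The replicate block left the adjusted count at 0. Alas2 and Epor lay near background, where a span is limited by the array signal.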
